A study of Mus musculus with 6 samples.

Results

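The genes described here encode receptors, SMAD proteins and SMAD corepressors of the TGF-beta, activin and BMP pathway. They are Tgfbr1, Tgfbr2, Bmpr2, Acvr2a, Smad2, Smad3, Smad4, Smad7, Ski and Tgif1. The genes were chosen by name, and every probe set whose platform annotation names 1 of them alone was taken. All 10 genes were measured, by 18 probe sets among 22626 tested, or 10 of 12393 genes. Of these, 5 genes have 1 probe set, 2 genes have 2 and 3 genes have 3.

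The cells were CD4+CD25+ Tregs separated with magnetic beads. HDAC11-/- Tregs came from mice labelled fl-HDAC11/Foxp3cre, in which a floxed Hdac11 gene is deleted by a Cre recombinase driven from the Foxp3 gene (Foxp3-YFP-Cre in the methods). WT Tregs came from C57BL6 mice, for which the labels name neither allele. There were 3 arrays per genotype, and the labels give no age, whereas the methods set 6 to 8 weeks for mice of the study unless specified. The Cre and YFP insertion is present in the HDAC11-/- mice and not named for WT, so its effect cannot be told apart from that of the deletion. Beads can leave other CD4+CD25+ or attached cells in the fraction. The labels number the arrays as replicates and do not tie them to animals, so p-values measure the spread between these arrays, which may be technical. RNA amount per cell and the share of a cell type in the fraction cannot be told apart in bulk RNA.

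TGF-beta binds TGFBR2, which recruits and activates the kinase TGFBR1. TGFBR1 then phosphorylates SMAD2 and SMAD3, which join SMAD4 and enter the nucleus. BMPR2 and ACVR2A are the corresponding ligand-binding receptors for BMPs and activins, SMAD7 is an inhibitor that the pathway itself induces, and SKI and TGIF1 are corepressors that bring histone deacetylases to SMAD complexes. In T cells the pathway is best known for inducing Foxp3 and for restraining proliferation and effector differentiation.

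Acvr2a was lower in HDAC11-/- Tregs and Bmpr2 and Tgif1 were higher, each by about the threshold of 1.5-fold, and the other 7 genes were not called by their brightest probe set. A call means a Benjamini-Hochberg adjusted p under 0.05 over all 22626 probe sets in limma and at least a 1.5-fold difference. Of the 18 probe sets, 2 were called higher and 1 lower, where 3.87% of all probe sets were called higher, 5.03% lower and 8.90% either way. Of the 10 genes by their brightest probe set, 2 were called higher and 1 lower, where 3.46% of all genes were called higher, 3.72% lower and 7.18% either way. By the adjusted p alone, 5 probe sets were higher, 4 were lower and 9 did not pass, where 23.2% of all probe sets were higher, 22.4% lower and 45.6% either way. By the same measure 4 genes were higher and 2 lower, where 22.9% of all genes were higher, 23.2% lower and 46.0% either way. The median log2 fold change (HDAC11-/- over WT) of the 18 probe sets was -0.04, and that of all probe sets was -0.03. The genotypes did not overlap in 13 of the 18 probe sets and in 9 of the 10 genes, and likewise in 56.7% of all probe sets and 57.8% of all genes. With so few genes these counts are a description, and the genes are given below by their own values.

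**Figure D1:**
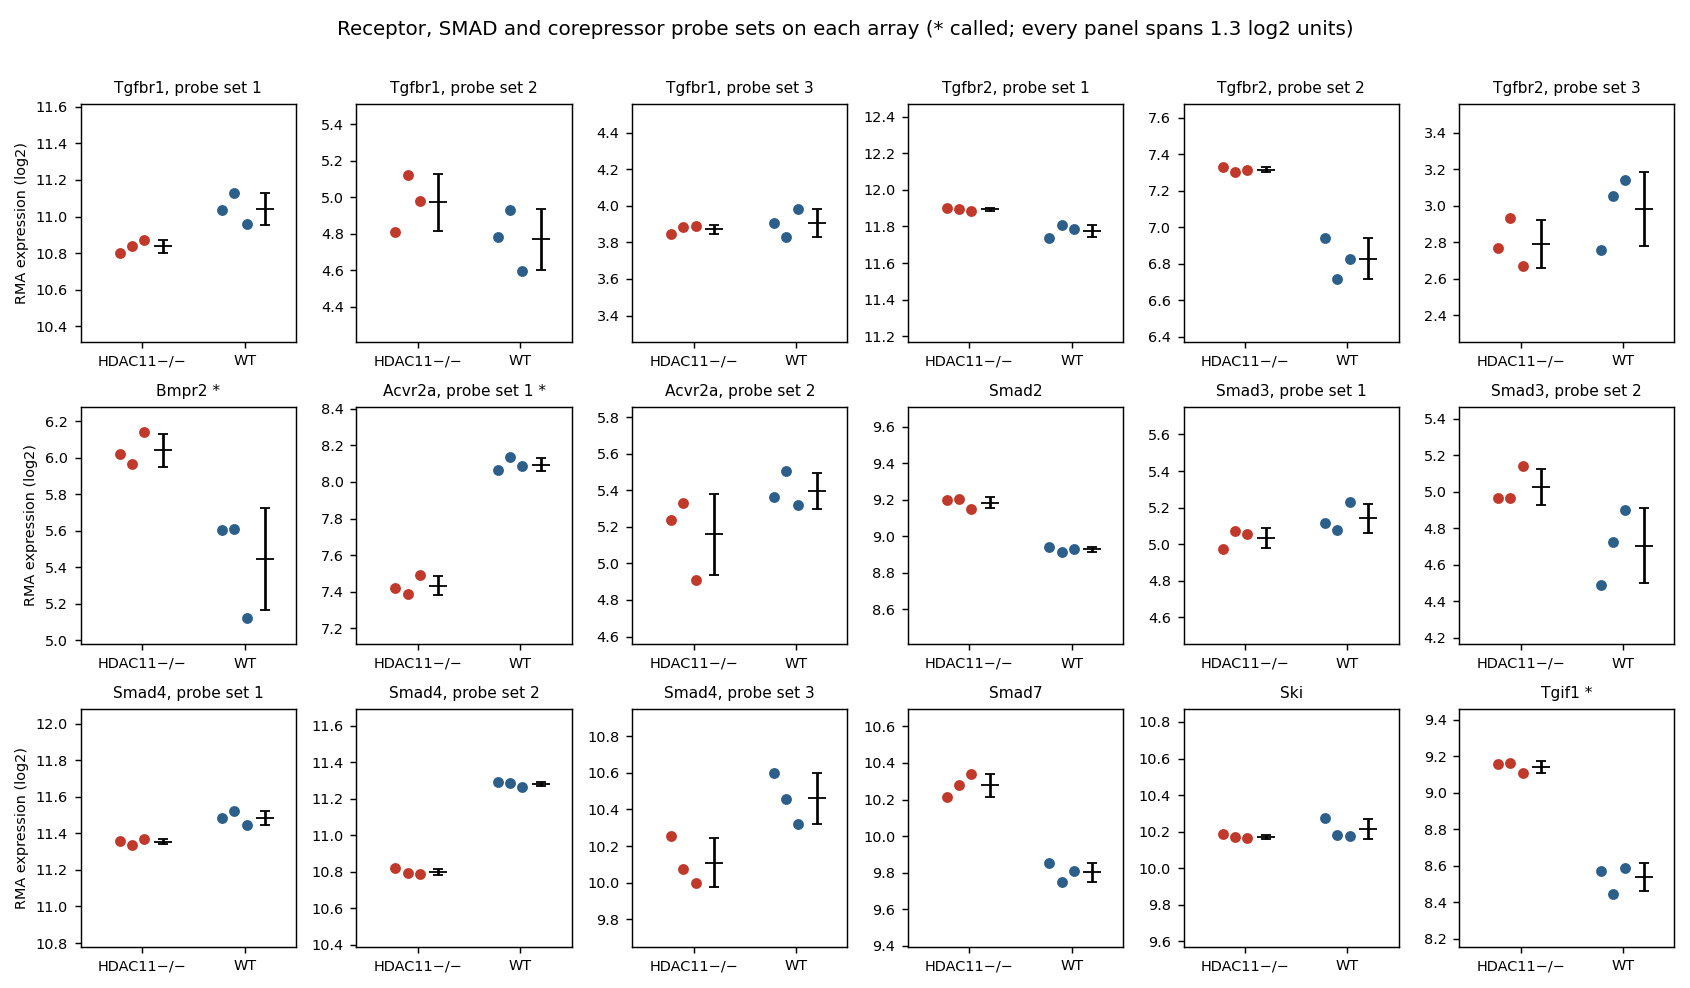
RMA expression (log2) of the 18 probe sets on each array, with HDAC11-/- arrays at the left and WT arrays at the right of each panel, bars for the mean and SD of 3 arrays, and probe sets of a gene numbered by brightness. The genotypes are apart by 0.66 in Acvr2a probe set 1, and they overlap in Ski.

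The level of a probe set is its RMA value on the log2 scale, and levels of different probe sets are not compared. The sources used here give no detection calls, so a probe set is said to be within the control range on an array where it does not exceed the brightest of the bacterial controls, which was at 5.06 to 5.28 on the HDAC11-/- arrays and 5.27 to 5.48 on the WT arrays. Of the 18 probe sets, 11 lay above that control on all 6 arrays, 5 on some and 2 on none.

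Acvr2a encodes an activin receptor that also serves several BMPs. Its brighter probe set had log2 levels of 7.42, 7.39 and 7.49 on the HDAC11-/- arrays and 8.06, 8.14 and 8.09 on the WT arrays. All HDAC11-/- arrays lay below all WT arrays, by far more than the spread within a genotype. The log2 fold change was -0.66 (SE 0.05, 95% interval -0.78 to -0.55, adjusted p = 0.000142 from limma), so WT was 1.58-fold above HDAC11-/-. The dimmer probe set gave 5.24, 5.33 and 4.91 on the HDAC11-/- arrays and 5.36, 5.51 and 5.32 on the WT arrays. These ranges overlap, and the probe set lay above the controls on 3 of 6 arrays. Its log2 fold change of -0.24 (95% interval -0.51 to 0.04, adjusted p = 0.140 from limma) did not pass. The call of the brighter probe set was kept when any array was left out, with log2 fold changes from -0.69 to -0.64.

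Bmpr2 encodes the main BMP receptor of its class. Its single probe set was at 6.02, 5.96 and 6.14 on the HDAC11-/- arrays and 5.60, 5.61 and 5.12 on the WT arrays. WT replicate 3 stands apart from the other two and lay within the control range. The log2 fold change was 0.59 (SE 0.14, 95% interval 0.26 to 0.92, adjusted p = 0.0129 from limma), or 1.51-fold. Without WT replicate 3 it was 0.43 (adjusted p = 0.00534) and without HDAC11-/- replicate 3 it was 0.54 (adjusted p = 0.0463), both short of the fold threshold.

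Tgif1 encodes a homeodomain corepressor of SMAD2 and SMAD3. The probe set was at 9.16, 9.16 and 9.11 on the HDAC11-/- arrays and 8.57, 8.45 and 8.59 on the WT arrays, and the genotypes did not overlap. The log2 fold change was 0.61 (SE 0.05, 95% interval 0.48 to 0.74, adjusted p = 0.000306 from limma), or 1.52-fold. Without WT replicate 2, the lowest of the WT arrays, it was 0.56 and no longer past the fold threshold.

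RMA assumes that most genes do not differ, so these calls also depend on the scale. On the deposited scale 876 probe sets were called higher and 1138 lower. Scaled on 12 reference genes, which moves the median of all probe sets to -0.15 and gives 563 higher and 1701 lower, Bmpr2 and Tgif1 were at 0.48 and 0.49 and lost their calls, while Acvr2a kept its call. The cre scale rests on only 3 control probe sets of the array platform, at a mean of 13.79 on HDAC11-/- and 14.27 on WT arrays. On this scale, which moves that median to 0.45 and gives 7310 higher and 331 lower, Acvr2a was at -0.18 and lost its call.

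The upstream sequences of these 3 genes are shown because theirs were the calls. They are the 250 bases before the gene's first start in RefSeq (GRCm38.p6), 5′ to 3′ on the gene's strand, with capitals for any match to CAGAC, a core of SMAD binding sites, to the AP-1 motif TGANTCA or to the CRE motif TGACGTCA, on either strand.
Acvr2a, chr2:48813859-48814108, plus strand: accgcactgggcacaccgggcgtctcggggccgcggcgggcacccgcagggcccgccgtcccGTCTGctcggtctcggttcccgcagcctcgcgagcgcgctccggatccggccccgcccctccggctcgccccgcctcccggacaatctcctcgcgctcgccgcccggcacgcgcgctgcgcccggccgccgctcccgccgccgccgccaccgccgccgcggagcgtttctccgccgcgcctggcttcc
Bmpr2, chr1:59764029-59764278, plus strand: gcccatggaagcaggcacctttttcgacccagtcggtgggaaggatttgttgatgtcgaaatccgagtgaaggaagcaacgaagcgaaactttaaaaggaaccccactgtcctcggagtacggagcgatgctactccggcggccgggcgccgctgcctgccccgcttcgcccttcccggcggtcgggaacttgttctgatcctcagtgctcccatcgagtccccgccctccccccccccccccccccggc
Tgif1, chr17:70853533-70853782, minus strand: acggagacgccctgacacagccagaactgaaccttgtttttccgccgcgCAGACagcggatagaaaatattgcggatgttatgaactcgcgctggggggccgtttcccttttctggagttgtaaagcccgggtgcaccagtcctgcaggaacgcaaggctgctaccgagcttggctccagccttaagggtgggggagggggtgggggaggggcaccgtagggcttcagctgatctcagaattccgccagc
The Acvr2a and Tgif1 windows each hold 1 CAGAC match, in Acvr2a on the opposite strand (GTCTG), and the Bmpr2 window holds none. The windows of Smad2, Smad4 and Smad7 were not used here. Of 12 such windows used for the other 7 genes, 6 hold CAGAC, and 42.2% of 32851 windows of this length do. None of the 12 holds TGANTCA or TGACGTCA, which are in 6.75% and 1.55% of all windows. Tgif1 has 5 annotated starts, of which the first in the gene is shown, and the arrays do not tell which was used.

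Of the TGF-beta receptors, neither was called. By the adjusted p alone, the kinase gene Tgfbr1 was lower in its brightest probe set and the ligand-binding Tgfbr2 was higher in a dimmer one. The brightest Tgfbr1 probe set was at 10.80, 10.84 and 10.87 on the HDAC11-/- arrays and 11.03, 11.13 and 10.96 on the WT arrays. The genotypes did not overlap, and the log2 fold change of -0.20 (95% interval -0.34 to -0.06, adjusted p = 0.0275 from limma) was short of the fold threshold. The second Tgfbr1 probe set lay within the control range on 5 of 6 arrays and the third on all, with log2 fold changes of 0.20 and -0.03 that did not pass.

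The brightest Tgfbr2 probe set was at 11.90, 11.89 and 11.88 on the HDAC11-/- arrays and 11.74, 11.81 and 11.78 on the WT arrays, or 0.12 as a log2 fold change (95% interval 0.01 to 0.22, adjusted p = 0.0667 from limma). Its second probe set was at 7.33, 7.30 and 7.31 on the HDAC11-/- arrays and 6.94, 6.72 and 6.83 on the WT arrays. That is a log2 fold change of 0.49 (95% interval 0.33 to 0.64, adjusted p = 0.00139), and the intervals of the 2 probe sets do not overlap. The sources used here do not place these probe sets on the transcript. The third Tgfbr2 probe set lay within the control range on all arrays.

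**Figure D2:**
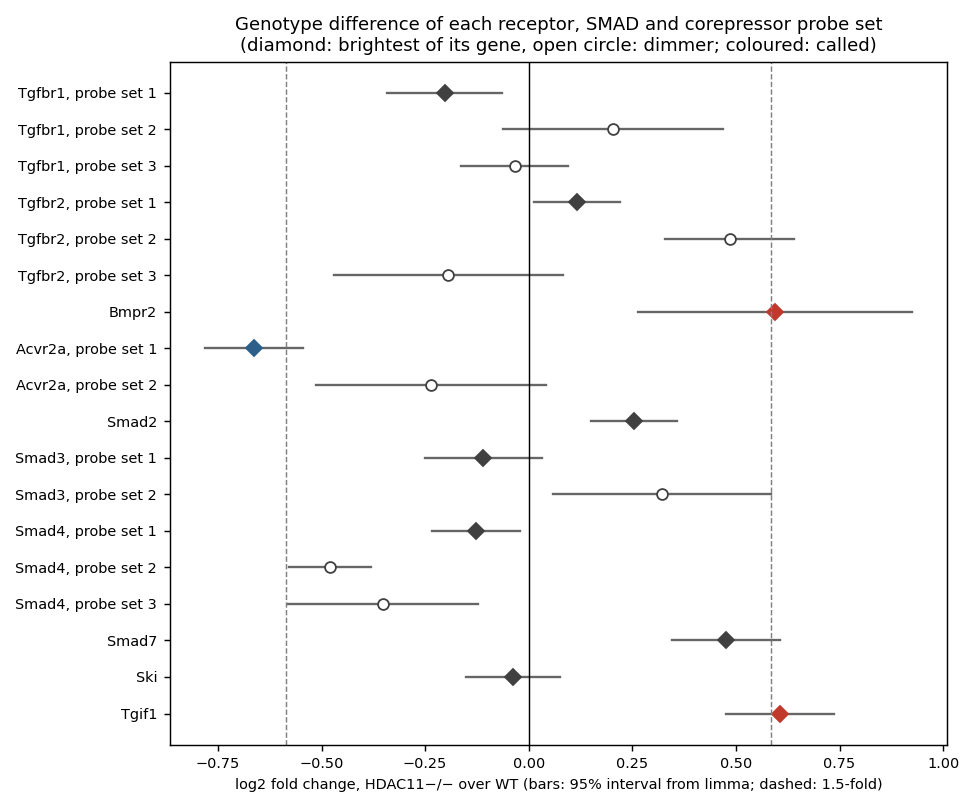
Log2 fold change (HDAC11-/- over WT) of each of the 18 probe sets with its 95% interval from limma, with diamonds where it is the brightest of its gene, open circles for dimmer ones and colour for calls. The called Bmpr2 at 0.59 and Tgif1 at 0.61 lie just past the dashed 1.5-fold line, and Smad7 at 0.48 lies inside it.

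The SMAD genes lay on both sides of 0 and none was called. Smad2, the receptor-regulated SMAD of TGF-beta and activin, was at 9.20, 9.20 and 9.15 on the HDAC11-/- arrays and 8.94, 8.92 and 8.93 on the WT arrays. Its log2 fold change was 0.25 (95% interval 0.15 to 0.36, adjusted p = 0.00359 from limma). Smad7, the inhibitory SMAD, was at 10.21, 10.28 and 10.34 on the HDAC11-/- arrays and 9.85, 9.75 and 9.81 on the WT arrays. All HDAC11-/- arrays were above all WT arrays, and the log2 fold change was 0.48 (95% interval 0.34 to 0.61, adjusted p = 0.000756 from limma), a 1.39-fold difference short of the fold threshold.

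Smad4, the shared partner of the other SMADs, was lower in HDAC11-/- Tregs by the adjusted p alone, in its dimmer probe sets. The brightest was at 11.36, 11.34 and 11.37 on the HDAC11-/- arrays and 11.48, 11.52 and 11.44 on the WT arrays, a log2 fold change of -0.13 (95% interval -0.23 to -0.02, adjusted p = 0.0531 from limma). The second was at 10.82, 10.79 and 10.79 on the HDAC11-/- arrays and 11.29, 11.29 and 11.26 on the WT arrays. Its log2 fold change was -0.48 (95% interval -0.58 to -0.38, adjusted p = 0.000255), and its interval does not overlap that of the brightest. It was called on the reference gene scale, at -0.59. The third was at 10.26, 10.08 and 9.996 on the HDAC11-/- arrays and 10.60, 10.46 and 10.32 on the WT arrays, a log2 fold change of -0.35 (95% interval -0.58 to -0.12, adjusted p = 0.0232). All 3 probe sets separated the genotypes in the same direction.

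The probe sets of Smad3, which pairs with SMAD4 at TGF-beta target genes, lay within the control range on all WT arrays and on all but 1 HDAC11-/- array each. The brighter was at 4.97, 5.07 and 5.05 on the HDAC11-/- arrays and 5.12, 5.08 and 5.23 on the WT arrays, and no fold is given. The other gave 4.97, 4.97 and 5.14 on the HDAC11-/- arrays and 4.49, 4.72 and 4.90 on the WT arrays (adjusted p = 0.0517 from limma). These arrays therefore give no usable level of Smad3.

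RNA quality controls differed with genotype. The 3′ minus 5′ difference of the Gapdh control was -0.0011 to 0.037 on the HDAC11-/- arrays and 0.088 to 0.095 on the WT arrays, on the log2 scale. That of the Actb control was 0.42 to 0.44 on the HDAC11-/- arrays and 0.47 to 0.53 on the WT arrays. These differences do not overlap between genotypes, and their part in the probe set differences was not tested.

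Ski, the other corepressor, was at 10.19, 10.17 and 10.16 on the HDAC11-/- arrays and 10.28, 10.18 and 10.18 on the WT arrays. The genotypes overlap, and the log2 fold change was -0.04 (95% interval -0.15 to 0.08, adjusted p = 0.537 from limma), which bounds any difference well inside 1.5-fold on the deposited scale.

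**Figure D3:**
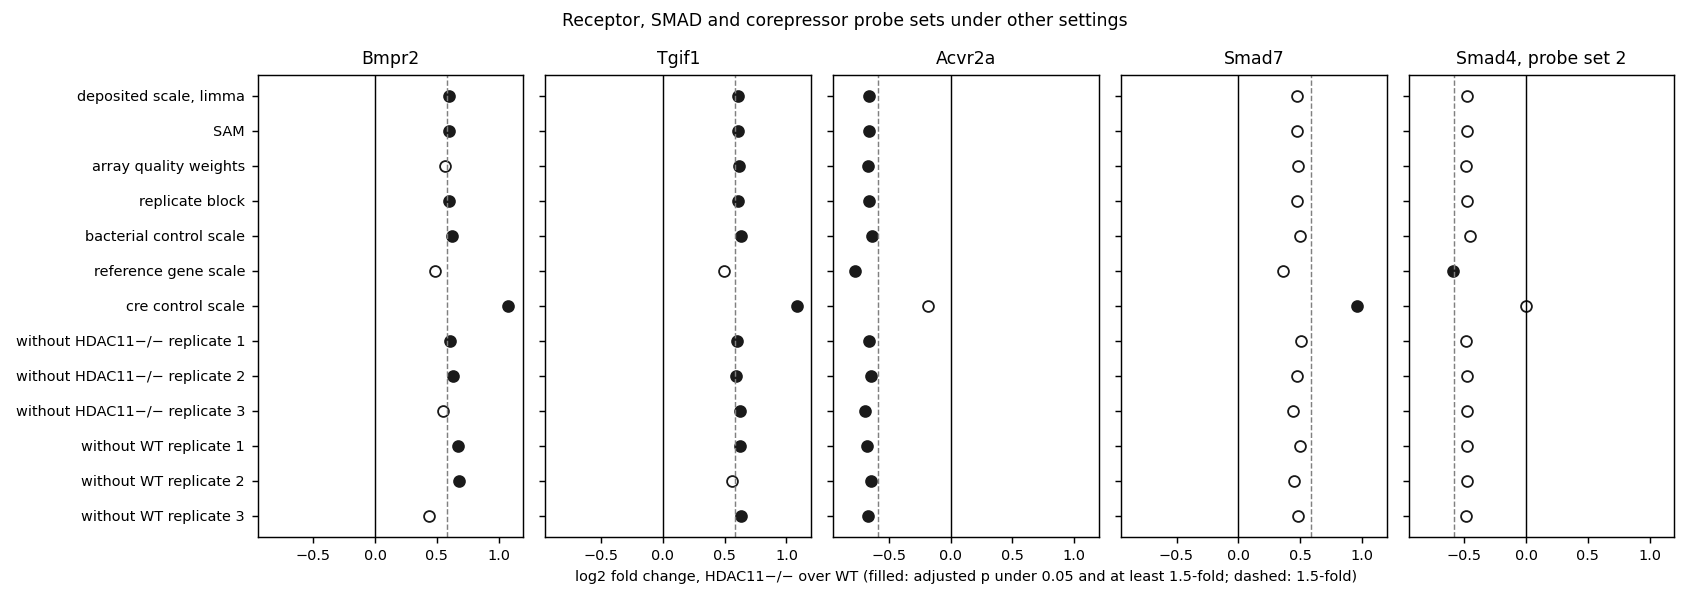
Log2 fold change (HDAC11-/- over WT) of 5 probe sets under other settings, filled where the adjusted p was under 0.05 and the fold at least 1.5. Acvr2a loses its call only on the cre control scale among those shown, at -0.18, whereas Bmpr2 loses its own at 0.43 without WT replicate 3.

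Each called gene has close neighbours among the other genes, measured as the root mean square distance over the 6 arrays of log2 values centred on the probe set. Nearest to Acvr2a were Luc7l2, Cdk16 and Arglu1, at distances of 0.028, 0.028 and 0.029. Psmd7, Arpc4 and Atf4 were nearest to Tgif1, at 0.018, 0.025 and 0.030. For Bmpr2 they were Alg13, Rad21 and Fkbp3, at 0.036, 0.076 and 0.078. The log2 fold changes of these 9 genes were -0.68 to -0.62 for the neighbours of Acvr2a, 0.58 to 0.61 for those of Tgif1 and 0.52 to 0.58 for those of Bmpr2. Neighbours were picked by their values on the same 6 arrays, so similar fold changes follow from the choice.

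Of 107 other genes of the pathway, 95 were measured, and 11 were called higher and 1 lower by their brightest probe set, where 3.46% of all genes were called higher and 3.72% lower. At an adjusted p under 0.05 alone 28 were higher and 20 lower, where 22.9% of all genes were higher and 23.2% lower. Their median log2 fold change was 0.00, against -0.04 over all genes, and 20 lay within the control range on all arrays. Of the 11 higher genes 8 were among the 20 measured target genes. The list was drawn up with earlier results of these arrays known, so its counts are a description.

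Among 18 ligand and activation genes 1 was called lower and none higher. Tgfb1, the main TGF-beta gene of T cells, was at 9.82, 9.73 and 9.76 on the HDAC11-/- arrays and 9.46, 9.35 and 9.46 on the WT arrays. Its log2 fold change was 0.34 (SE 0.05, adjusted p = 0.00265 from limma), short of the fold threshold. Bmp2, a BMP ligand, was at 4.64, 4.70 and 5.04 on the HDAC11-/- arrays, all within the control range, and 5.64, 5.99 and 5.59 on the WT arrays. WT was therefore at least 1.51-fold above HDAC11-/- (adjusted p = 0.00234), a bound set against the higher of the gene and the top control on each array. Bmp7 was at 0.33 in its brightest probe set and at -0.07 (adjusted p = 0.267 from limma) in the one brightest in WT, so its sign depends on the probe set. The activin subunit genes Inhba and Inhbb were at -0.40 and -0.28, past the adjusted p and not called.

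Of 8 antagonist genes the called one was Bambi, a decoy receptor without a kinase that blocks TGF-beta and BMP receptors. It was at 7.20, 7.08 and 7.23 on the HDAC11-/- arrays and 5.22, 5.85 and 5.74 on the WT arrays, where the lowest array was within the control range. The log2 fold change was 1.57 (SE 0.16) with an adjusted p of 0.000473 in limma. Of 9 other receptor and coreceptor genes only Acvrl1, the kinase receptor ALK1 of endothelium, was called. Its WT arrays lay within the control range, and HDAC11-/- was at least 1.16-fold higher (adjusted p = 0.000641). Eng, a coreceptor, and Acvr1b, the activin partner of Acvr2a, were at -0.32 and -0.24 (adjusted p = 0.00339 and 0.0266), and Tgfbr3 was within the control range in both genotypes.

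None of the other 4 SMAD genes was called by its brightest probe set. Smad1, a SMAD of BMP signals, was at 0.20 (adjusted p = 0.00780 from limma), Smad5 had 2 probe sets of opposite sign, and Smad6 and Smad9 lay within the control range. The brightest Smad5 probe set was at 0.50, and at 0.59 and called without WT replicate 2, whereas the other was called lower at -1.25 (adjusted p = 0.00204).

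Of 20 adaptor, ligase and phosphatase genes, 1 was called, where 7.18% of all genes were, and 9 were higher and 4 lower by the adjusted p alone, where 22.9% and 23.2% of all genes were. The called gene was Ppp1r15a, a stress-induced phosphatase subunit that SMAD7 can recruit to TGFBR1, at a log2 fold change of 3.57. Strap, which stabilises SMAD7 at the receptor, was at 0.54, the ubiquitin ligase gene Wwp1 at 0.46, the deubiquitinase gene Usp15 at 0.30 and the kinase adaptor gene Tab1 at -0.46, all short of the fold threshold. None of 17 nuclear partner genes was called. Skil, the close relative of Ski, was at -0.26 (adjusted p = 0.00333 from limma) in its brightest probe set and at 0.40 (adjusted p = 0.00433) in the other. Foxh1 was at -0.46, Zeb1 at -0.36 and Atf3 at least 1.10-fold higher in HDAC11-/- Tregs (adjusted p = 0.0148), its WT arrays being within the control range.

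The 20 target genes are known from T cells or other cells. By the adjusted p alone 12 were higher and 4 lower, where 22.9% of all genes were higher and 23.2% lower. Of the 20 target genes 8 were called higher and none lower by their brightest probe set, where 3.46% and 3.72% of all genes were. Id2 and Tsc22d1, counted as higher by the adjusted p, were each called lower in another probe set, at -1.09 and -1.37. Skil, counted as lower, was higher by the adjusted p in its other probe set. These genes were picked after their values were seen. Junb was at a log2 fold change of 2.39, Gadd45b at 1.21, Bhlhe40 at 1.19, Rgs16 at 1.09, Ccr8 at 0.96, Klf10 at 0.72 and Myc at 0.72, with adjusted p of at most 0.00294 in limma. Klf10 and Gadd45b are early targets of TGF-beta, and Junb, Gadd45b and Klf10 are also induced by stimulation of other kinds. MYC is a gene that TGF-beta represses in epithelial cells. The eighth, Ccn2, lay within the control range in both genotypes, so no fold is given. Itgae, the integrin gene that TGF-beta induces in T cells, was at -0.22 and Id3, a BMP and TGF-beta target, at -0.19 (adjusted p = 0.0159 and 0.0134 from limma). On the same arrays 10 of 14 immediate early genes (Fos at 5.65) and 12 of 12 cell-cycle genes (Birc5 at 2.76) were called higher. Summed on the linear RMA scale, the early genes were at 57015 to 57474 on HDAC11-/- arrays and 16242 to 16664 on WT arrays, and the cell-cycle genes at 7216 to 7453 on HDAC11-/- arrays and 1694 to 1777 on WT arrays. Their part in the values of the 10 genes and of the target genes was not tested.

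**Figure D4:**
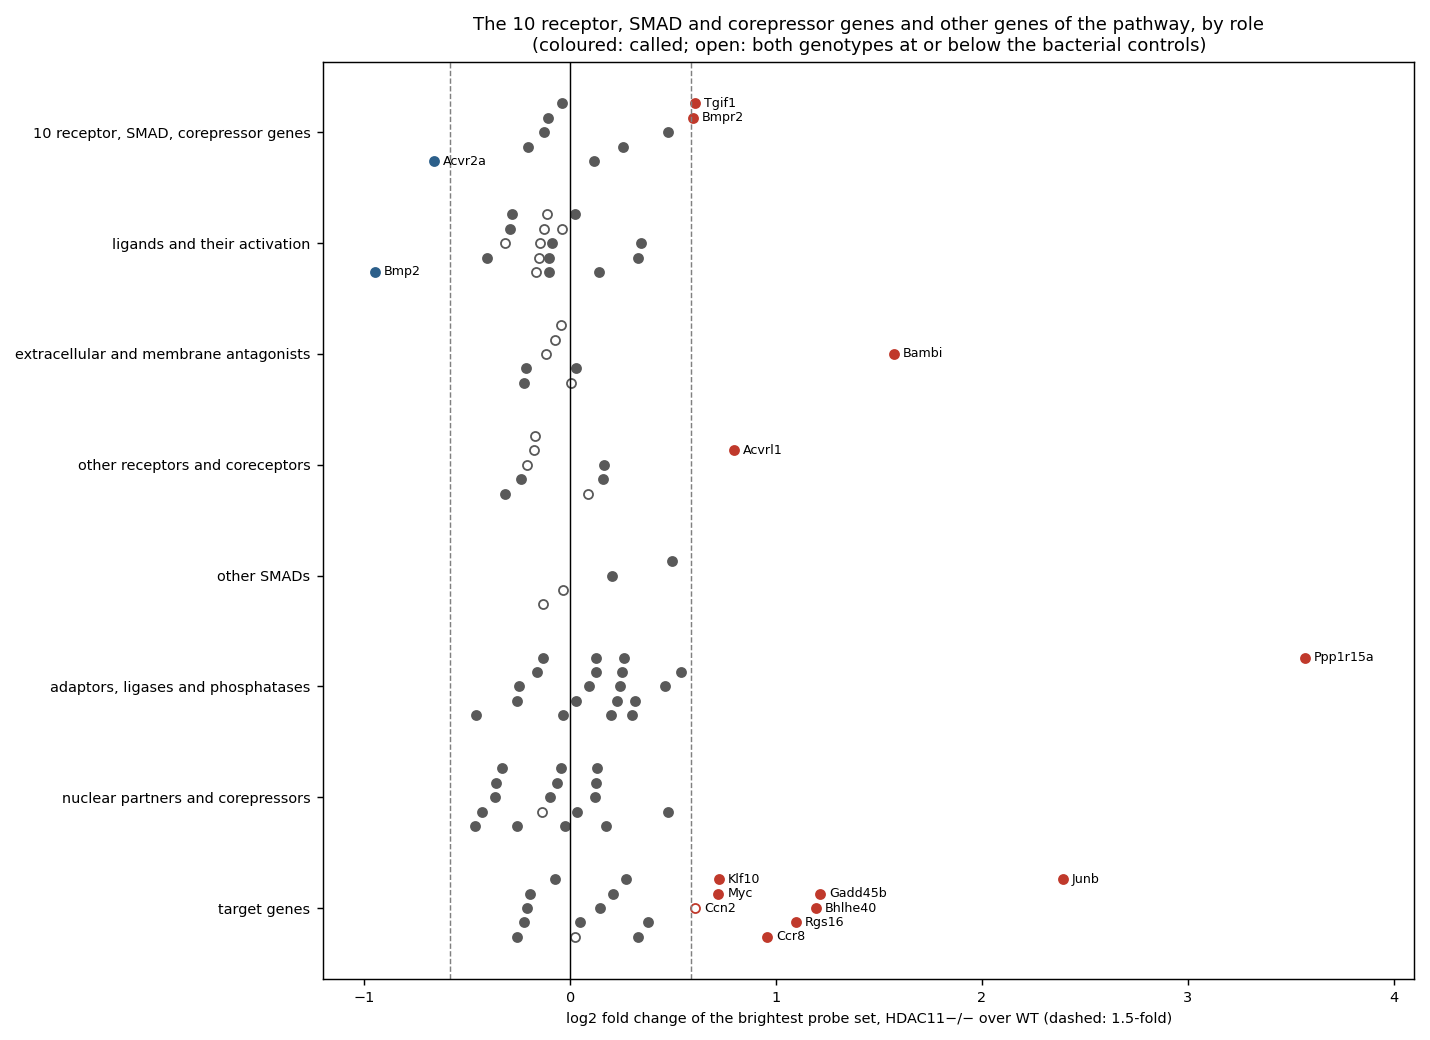
Log2 fold change (HDAC11-/- over WT) of the brightest probe set of the 10 genes and of 95 other pathway genes by role, with colour for calls and open circles for genes within the control range in both genotypes. Fitted values are shown also for Bmp2, Acvrl1 and Atf3, for which 1 genotype gives only a bound, Skil is drawn in both of its roles, and 8 target genes lie to the right of the dashed 1.5-fold line.

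Over all probe sets, 80.9% of the variance lay on the component that parts the genotypes, and arrays correlated at 0.9982 to 0.9987 within HDAC11-/-, 0.9969 to 0.9975 within WT and 0.9852 to 0.9878 between genotypes. Neither Hdac11 probe set passed (log2 fold changes -0.12 and -0.10, adjusted p = 0.222 and 0.532 from limma), and since the deleted part is not placed relative to the probes, they check neither the deletion nor the labels. Of 7 T cell and 9 Treg markers none was called, and Foxp3 itself lay within the control range on all arrays. By the adjusted p alone 1 T cell marker was higher (Thy1 at 0.14) and 1 lower (Cd4 at -0.32). Of the Treg markers 1 was higher by it (Ctla4 at 0.50, adjusted p = 0.000269 from limma) and 3 lower. These 3 were Ikzf2 at -0.35, Gpr83 at -0.33 and Izumo1r at -0.20. Over all genes 22.9% were higher and 23.2% lower by this measure. Other markers moved with genotype, and their part in the values above was not tested. Called higher were 4 of 12 macrophage genes, of which C1qb lay within the control range on all arrays, C1qa and C1qc on all WT arrays and Vcam1 on 2 of 3 WT arrays. With the filter on dim probe sets 0 of them were called, and on the reference gene scale 2. Of the 12 macrophage genes 6 were higher by the adjusted p alone and 1 lower, Fcgr3 at -0.505 (adjusted p = 0.0204 from limma). Csf1r, above the controls on all 6 arrays, was at -0.02 and did not pass (adjusted p = 0.867 from limma). Called lower were 5 of 10 B cell genes (Ms4a1 at -1.84), 3 of 9 CD8 T and NK cell genes (Fcer1g at -1.32), with Klrc1 higher, and 2 of 8 dendritic cell genes (H2-Aa at -1.60). The other called dendritic cell gene was H2-Eb1 at -1.22. By the adjusted p alone 4 of these 8 genes were lower and 2 higher. The higher ones were Cst3 at 0.31 and Ccr9 at 0.23 (adjusted p = 0.00235 and 0.026 from limma). Of the 9 CD8 T and NK cell genes 5 were lower and 2 higher by the same measure. These 2 were Klrc1 at 0.63 and Cd8b1 at 0.42 (adjusted p = 0.00782 and 0.00671 from limma). Cd8a, at -0.04, did not pass. Klrc1, C1qb, C1qc, Cd8a, Csf1r and the markers given by the adjusted p alone were named after their values were seen. The Klrc1 call was lost without WT replicate 1, without WT replicate 3 and on the reference gene scale. None of 8 stromal, endothelial, platelet and red cell genes was called. Summed over each list on the linear RMA scale, the genotypes overlapped for T cell markers and in no other list. The macrophage sum was 493 to 548 on HDAC11-/- arrays and 402 to 425 on WT arrays, and the Treg sum 22634 to 23027 on HDAC11-/- arrays and 21621 to 22042 on WT arrays. Ctla4 alone, at a mean of 12.512 on HDAC11-/- and 12.014 on WT arrays (log2), rose by more than the Treg sum did. Ikzf2, Gpr83 and Izumo1r were lower, so that sum does not describe the whole Treg list. The B cell sum was 10242 to 10361 on HDAC11-/- arrays and 11302 to 11791 on WT arrays, and that of CD8 T and NK cells 1777 to 1894 on HDAC11-/- arrays and 2055 to 2163 on WT arrays. The dendritic cell sum was 2696 to 2804 on HDAC11-/- arrays and 4519 to 4557 on WT arrays, and the stromal sum 538 to 540 on HDAC11-/- arrays and 633 to 662 on WT arrays. Most of the fall in the dendritic cell sum is that of H2-Aa, at a mean of 9.593 on HDAC11-/- and 11.195 on WT arrays (log2). H2-Eb1 was at a mean of 8.424 and 9.639, whereas Cst3 and Ccr9 went the other way, so that sum does not describe the whole list. Within the control range on all arrays were Pax5, Ebf1 and Fcer2a of B cells, Klra8 of NK cells, Xcr1 of dendritic cells, Adgre1, C1qb, Cd14, Mertk and Aif1 of macrophages, and Cdh5, Col1a1 and Pf4 of the stromal list.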

How the data were processed

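Bead-separated CD4+CD25+ Tregs of 2 genotypes were profiled on Affymetrix Mouse430A arrays, 3 per genotype. The authors amplified and biotin-labelled 100 ng of total RNA, normalized the arrays by RMA in MAYDAY 2.12 and deposited log2 values, used here unchanged. RMA equalizes the array distributions, which can hide a shift of all genes. The sources used here do not name the probe definition version. Of 22671 probe sets 45 controls were left out. The remaining 22626 were fitted without a filter in limma 3.58.1 under R 4.3.3, on genotype alone, with Benjamini-Hochberg adjustment over all of them. Of these, 20380 carry 1 gene symbol, 691 several and 1555 none here. For counts of genes, the probe set brightest on average over the 6 arrays stood for its gene. SAM, the test of the methods, was written out over 20 labelings. On simulated data with 22626 probe sets, limma called 18 of 50 changed 1.5-fold, 45 of 50 changed 2-fold and 1 of 22426 unchanged. Of the 50 changed 1.5-fold, which lies at the fold threshold itself, 33 passed the adjusted p in limma. In the data 45.6% of probe sets passed it, far more than were changed in the simulation, so these rates do not carry over. Precision is limited by the few arrays, with a median SD per probe set of 0.066 in HDAC11-/- and 0.090 in WT. The 10 genes, the lists and the motifs were chosen with earlier results of these arrays known. Named beyond the 10 genes were called pathway genes and up to 4 more per role with the smallest adjusted p, and the most changed called markers. Promoter sequences are from RefSeq (GRCm38.p6), and figures were drawn with matplotlib 3.10.9.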

Additional observations from a re-analysis of the deposited data

How the results depend on the processing

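SAM, the bacterial control scale, an intensity trend with a robust prior and a replicate block kept every call of the 18 probe sets. The constant that SAM added to the standard error of each probe set was 0.507. The SE of the called probe sets in limma was at most 0.14, so SAM followed the fold change closely and tests these calls little. The bacterial controls averaged 3.30 on HDAC11-/- and 3.32 on WT arrays, so their scale lies close to the deposited one and tests it little. With the replicate block 2 probe sets were higher and 1 lower, as without it, and same-numbered arrays shared no clear deviation (r of 0.23, -0.019 and 0.163), so the numbers were not taken as pairs. Leaving out 1 array gave 1 to 2 probe sets and 1 to 2 genes called higher and 1 lower. Array quality weights left 1 gene higher, with Bmpr2 at 0.56, the filter on dim probe sets left 1, since it removes Bmpr2, and an adjusted p under 0.0005 left 1. Using no probe set with a shared-transcript suffix left 1, since the only Tgif1 probe set has one. The reference gene scale left 0 higher, with 2 probe sets lower, where 563 of all 22626 probe sets were higher and 1701 lower. With no fold threshold 5 probe sets and 4 genes were higher and 4 and 2 lower. Of all probe sets 23.2% were higher and 22.4% lower at that setting, and of all genes 22.9% and 23.2%. At 2-fold 0 were called in either direction. No share of all probe sets is given at 2-fold or at an adjusted p under 0.0005, so those counts are a description. The cre scale gave 8 probe sets and 5 genes higher and 0 lower, where 7310 of all 22626 probe sets were higher and 331 lower.

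The pathway list had 10 to 12 genes higher and 1 lower when 1 array was left out. It had 39 higher and 0 lower on the cre scale, where 7310 of all 22626 probe sets were higher and 331 lower. The list had 28 and 20 with no fold threshold, where 22.9% of all genes were higher and 23.2% lower. At 2-fold it had 6 and 0, for which no share of all genes is given. Lower genes numbered 0 with the dim filter, which removes Bmp2, 0 at an adjusted p under 0.0005, 2 by the probe set brightest in WT, 6 by any probe set and 4 without shared-transcript suffixes.

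On the cre scale the values listed here turned from below 0 to positive, relative to a median of 0.45 for all probe sets. Acvr2a probe set 1 stayed below 0, at -0.18. Those of Smad3, Tgfbr1 and Tgfbr2 (probe set 3), Fstl1, Nog, Smad6, Smad9 and Tgfbr3 are fitted values of probe sets mostly or wholly within the control range and measure no fold. The values that turned were Tgfbr1 at 0.28 and 0.45 (probe set 3), Tgfbr2 probe set 3 at 0.29, Acvr2a probe set 2 at 0.25, the brighter of Smad3 at 0.37, Smad4 at 0.35, 0.002 and 0.13, Ski at 0.44 and Hdac11 at 0.36. Among pathway genes they were Inhba at 0.08, Inhbb at 0.20, Grem1 at 0.26, Chrd at 0.27, Fstl1 at 0.37, Nog at 0.41, Eng at 0.16, Acvr1b at 0.24, Tgfbr3 at 0.27, Smad6 at 0.35, Smad9 at 0.45, Tab1 at 0.024, Foxh1 at 0.018, Zeb1 at 0.12, Skil at 0.22, Id3 at 0.29 and Itgae at 0.26. With 1 array left out Tgfbr1 probe set 3 ranged from -0.072 to 0.005, Nog from -0.133 to 0.032 and Smad9 from -0.123 to 0.014, and Smad9 was at 0.006 with array weights. The sign of Bmp7 (-0.067) and Smad5 (-1.25) turned when the probe set brightest in WT was used, and that of Smad5 (-1.25) and Tsc22d1 (-1.37) without shared-transcript suffixes. The cause of these scale differences was not tested.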

Other observations

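Probe sets of opposite sign were seen in several pathway genes, which were chosen for this paragraph after their values were seen. Smad5, a SMAD of BMP signals, was at 7.19, 7.16 and 7.15 on the HDAC11-/- arrays and 6.52, 6.85 and 6.64 on the WT arrays in its brighter probe set, a log2 fold change of 0.50 (adjusted p = 0.00390 from limma). Its other probe set was at 5.86, 5.46 and 5.72 on the HDAC11-/- arrays and 7.33, 6.77 and 6.70 on the WT arrays, a log2 fold change of -1.25 (adjusted p = 0.00204). On the WT arrays alone this second probe set was the brighter on average. Tsc22d1, a leucine zipper gene induced by TGF-beta, was higher in 4 of 6 probe sets by the adjusted p alone, 1 of them within the control range, and at -1.37 in another (adjusted p = 7.35e-05 from limma). Id2, an inhibitor of E proteins, was at 0.33 in its brightest probe set and at -0.27 and -1.09 in the others, all past the adjusted p. Skil was at -0.26 in its brighter probe set and 0.40 in its dimmer one. A statement on the direction of these genes therefore depends on which probe set is read, and the part of the 3′ to 5′ control differences between the genotypes was not tested.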
